A study of Mus musculus with 12 samples.

Results

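De novo lipogenesis, the synthesis of fatty acids from carbohydrate carbon, was examined through 10 genes chosen by symbol from the 56748 genes of the liver count table. They comprise the transcription factor genes Srebf1 and Mlxipl, the enzyme genes Acly, Acaca, Acacb, Fasn, Scd1 and Me1, the regulator Thrsp and the lipid droplet protein gene Pnpla3. Each symbol had 1 entry, and 9 of the 10 genes passed the filter on low counts in each comparison, with Pnpla3 the exception. Liver RNA came from mice fasted for 24 h, in 3 genotypes of 4 livers each. WT livers were controls that the labels give as floxed for Cpt1a, Cpt1b and Cpt2. SKO livers were labelled as liver-specific knockouts of Cpt2, which encodes the carnitine palmitoyltransferase of the inner mitochondrial membrane, and DKO livers as double knockouts of Atf3 and Cpt2. The study's deletions were driven by Cre recombinase under the albumin promoter, which is active in hepatocytes. The study describes the mice used for sequencing as male, and the labels give no age, sex, batch or date.

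In this pathway, cytosolic citrate is cleaved to acetyl-CoA, acetyl-CoA is carboxylated to malonyl-CoA, and fatty acid synthase builds palmitate from these with NADPH. In liver the genes are known to be driven after feeding by SREBP-1, the product of Srebf1, which responds to insulin, and by ChREBP, the product of Mlxipl, which responds to glucose metabolites. Malonyl-CoA also inhibits the entry of fatty acids into mitochondria, the route that requires Cpt2 further on.

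Total counts were 14710304 to 20030055 per liver, and levels are given as CPM (counts scaled to library size, with edgeR's TMM factors over the 12 livers). Cpt2 had 199 to 250.4 CPM in WT livers, 109 to 158 CPM in SKO livers and 99.9 to 125 CPM in DKO livers, so that no knockout liver reached the WT range. Atf3 had 17 to 39 counts in WT and 259 to 1056 in SKO livers, and 164, 177, 265 and 5 counts in DKO replicates 1 to 4. The libraries labelled DKO replicates 1 to 3 thus held more Atf3 RNA than every WT liver and, in CPM, less than every SKO liver, and only replicate 4 was below WT. Counts per gene do not separate the deleted part of Atf3 from the rest, so they do not check this label, and SKO and DKO stand here for the labelled genotypes. SKO replicate 3 and DKO replicate 4 had 18063 and 20855 counts of Xist, the RNA of the inactive X chromosome, where the other 10 livers had at most 19. These 2 livers had 2 and 0 counts of Y-linked genes, against 2741 to 4294 in the others, which goes against the description of the mice as male. DKO replicate 4 also stood apart on other genes: Pdk4, which encodes a fasting-induced pyruvate dehydrogenase kinase, was at 69.8 CPM there and between 747 and 1013 CPM in the other DKO livers. The DKO results of the lipogenesis genes are therefore given with and without this liver. In it rRNA genes made 2.86% of counts and mitochondrial genes 4.18%, against 1.45 to 2.75% and 4.51 to 4.76% in the other DKO livers. WT livers had 0.506 to 1.46% and 4.73 to 5.98%, and SKO livers 0.877 to 1.56% and 4.58 to 6.01%. The part of these shares in the results was not tested. The hepatocyte markers (Alb, Ttr, Apoa1 and 5 others) together made 77110 to 94930 CPM in WT livers, 42447 to 70628 CPM in SKO livers and 42572 to 94955 CPM in DKO livers. Of these 8 markers 4 were lower in SKO than in WT, where 15.4% of all genes were, and none was at 0. Cholangiocyte markers summed to 27.9 to 33.3 CPM in WT and 7.41 to 14.5 in SKO livers, and stellate cell markers to 177 to 200.3 and 234 to 326 CPM. Of 4 tested cholangiocyte markers 2, Sox9 and Spp1, were lower in SKO than in WT. Of 8 stellate cell markers only 1, Dcn, was higher, where 16.7% of all genes were. Stellate cell markers were at 215 to 278 CPM in the 4 DKO livers, and cholangiocyte markers at 9.60 to 18.7 CPM in DKO replicates 1 to 3 and 31.3 CPM in replicate 4. In DKO replicates 1 to 3 hepatocyte markers made 42572 to 51497 CPM and macrophage markers 129 to 201 CPM. Macrophage markers made 222 to 455 CPM in WT livers, 208 to 507 CPM in SKO livers and 449 CPM in DKO replicate 4. Of the 8 macrophage markers 6 were lower and 1 higher in DKO than in WT without replicate 4, where 17.5% of all genes were lower and 18.4% higher. The part of these markers in the results was not tested, and in bulk liver fewer cells of a type and less RNA per cell cannot be told apart.

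Of the 9 lipogenesis genes tested, 8 differed between SKO and WT livers, 6 lower and 2 higher, at an adjusted p under 0.05 (edgeR's quasi-likelihood test, adjusted by the Benjamini-Hochberg method), against 32.1% of all 14261 genes tested. The ranges of the groups did not overlap for any of the 8, while 17.2% of all genes had non-overlapping ranges with SKO higher and 16.1% with SKO lower. Srebf1, Mlxipl, Thrsp, Acly, Fasn and Scd1 were lower, Acacb and Me1 were higher, and the median log2 fold change of the 9 was −1.20, against 0.03 over all genes. In DKO against WT livers 3 of the 9 passed, Acacb and Me1 higher and Acly lower, against 10.5% of all genes. The DKO and WT ranges did not overlap for Acacb and Acly, as was so for 7.72% of all genes with DKO higher and 9.05% with DKO lower. Without DKO replicate 4 it was 7 of 9, 2 higher and 5 lower, where 35.9% of all genes passed. Leaving out any other single liver gave 1 of 9, Acacb, where 1.63 to 2.73% of all genes passed, except that 2 passed without WT replicate 3, Acacb and Acly, where 4.81% of all genes did. SKO and DKO were compared with the same WT livers.

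**Figure D1:**
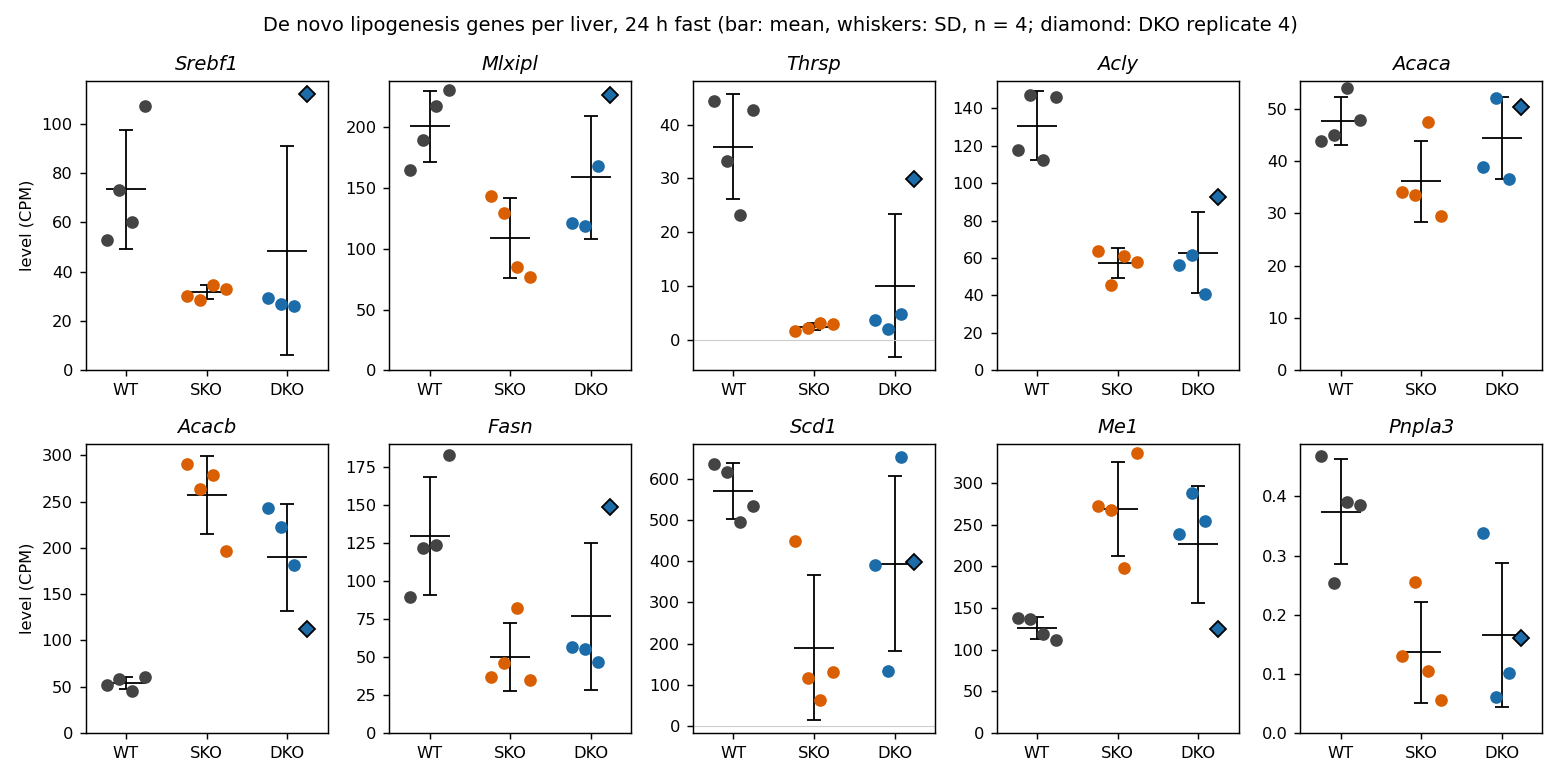
Level of each of the 10 genes in every liver (CPM on a linear axis), by genotype, with the mean (bar) and SD (whiskers) of 4 livers and DKO replicate 4 as a diamond. SKO points lie below all WT points for Srebf1, Mlxipl, Thrsp, Acly, Fasn and Scd1 and above them for Acacb and Me1, and the diamond lies among or above the WT points for Srebf1, Mlxipl, Thrsp, Fasn and Me1.

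The sequence before the transcription start is shown for 4 of these genes, namely Fasn and Thrsp among those lower in SKO and the pair that was higher, Acacb and Me1. The 250 bases before each RefSeq start (GRCm38.p6) are given 5′ to 3′ on the gene's strand, with capitals for matches, on either strand, to the E-box CACGTG, the CCAAT box CCAAT, the GC box GGGCGG and the sterol element core TCACCC. These letters were found in 6.02%, 33.8%, 32.7% and 13.8% of all 32851 promoters of this length. Fasn is at chr11:120824548-120824797 (minus strand), Thrsp at chr7:97417551-97417800 (minus), Acacb at chr5:114165268-114165517 (plus) and Me1 at chr9:86695915-86696164 (minus).
Fasn: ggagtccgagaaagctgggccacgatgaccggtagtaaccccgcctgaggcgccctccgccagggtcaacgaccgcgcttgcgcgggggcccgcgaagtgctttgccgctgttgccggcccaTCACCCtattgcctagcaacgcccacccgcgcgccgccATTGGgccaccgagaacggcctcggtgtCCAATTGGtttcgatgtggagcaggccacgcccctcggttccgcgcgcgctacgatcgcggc
Thrsp: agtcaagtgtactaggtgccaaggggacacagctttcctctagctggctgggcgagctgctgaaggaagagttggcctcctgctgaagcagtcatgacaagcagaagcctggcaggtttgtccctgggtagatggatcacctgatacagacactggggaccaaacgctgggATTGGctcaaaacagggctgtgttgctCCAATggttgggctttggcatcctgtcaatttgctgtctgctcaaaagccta
Acacb: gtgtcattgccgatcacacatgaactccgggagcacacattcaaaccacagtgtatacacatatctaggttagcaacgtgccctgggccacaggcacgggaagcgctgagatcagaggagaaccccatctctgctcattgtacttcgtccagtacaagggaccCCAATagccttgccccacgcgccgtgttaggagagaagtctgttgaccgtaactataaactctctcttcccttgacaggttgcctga
Me1: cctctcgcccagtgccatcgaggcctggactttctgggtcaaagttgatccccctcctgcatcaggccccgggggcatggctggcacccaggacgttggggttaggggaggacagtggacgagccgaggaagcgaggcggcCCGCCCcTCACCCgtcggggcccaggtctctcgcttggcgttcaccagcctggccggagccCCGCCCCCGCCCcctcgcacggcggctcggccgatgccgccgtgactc
The Fasn window held 3 CCAAT boxes, a pair of which overlap as CCAATTGG, and 1 sterol element core, and the Thrsp window held 2 CCAAT boxes. The Acacb window, whose start lies 18983 bases inside the annotated gene, held 1 CCAAT box. The Me1 window held 3 GC boxes and 1 sterol element core, and the window before another RefSeq start of Me1, at chr9:86687278-86687527, held 1 CCAAT box and none of the other motifs. None of the 4 windows held CACGTG, which says only that these letters are not in these 250 bases. RefSeq starts were matched for 9 of the 10 genes, and Scd1 was not among them.

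Both transcription factor genes were lower in SKO livers. Srebf1 (ENSMUSG00000020538, chromosome 11 from 60089915 to 60113407, minus strand) was at 53.0, 73.2, 60.2 and 107 CPM in WT replicates 1 to 4 and at 30.3, 28.3, 34.7 and 33.0 CPM in SKO replicates 1 to 4. DKO replicates 1 to 3 had 29.4, 26.8 and 25.9 CPM, and replicate 4 had 112 CPM. The first 3 DKO livers thus lay below every WT liver and close to the SKO livers, and the last lay above every other liver. Srebf1 was 2.33-fold lower in SKO than in WT (log2 fold change −1.22, SE 0.20, adjusted p = 0.000694, edgeR). In DKO against WT it was −0.58 (SE 0.49, adjusted p = 0.461, edgeR) and, without replicate 4, −1.42 (SE 0.21, adjusted p = 0.000428, edgeR). Rai1, on the opposite strand, overlaps the end of Srebf1 and had 260 to 681 counts per liver, and without a stated strand setting the reads of the shared stretch cannot be assigned to either gene.

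Mlxipl (ENSMUSG00000005373, chromosome 5 from 135118744 to 135167236, plus strand), the ChREBP gene, was at 165, 190.0, 218 and 231 CPM in the WT livers. SKO livers had 144, 129.7, 84.9 and 76.7 CPM, and DKO livers 121, 119, 168 and 227 CPM. SKO livers were all below the WT range, while a pair of DKO livers fell within it. The SKO level was 1.85-fold lower than WT (log2 fold change −0.89, SE 0.21, adjusted p = 0.00639, edgeR). DKO against WT gave −0.32 (SE 0.22, adjusted p = 0.368, edgeR) with all livers and −0.55 (SE 0.16, adjusted p = 0.0194, edgeR) without DKO replicate 4.

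Thrsp showed the largest change among the 9 genes in SKO livers. It encodes Spot 14, a small nuclear protein that promotes fatty acid synthesis in liver (ENSMUSG00000035686, chromosome 7 from 97062145 to 97066937, minus strand). WT livers had 44.3, 33.2, 23.2 and 42.8 CPM, SKO livers 1.62, 2.25, 3.07 and 3.03 CPM, and DKO livers 3.71, 1.96, 4.83 and 30.0 CPM. The SKO values rest on 25 to 59 counts per liver. Every SKO liver and the first 3 DKO livers lay far below WT and overlapped each other, and DKO replicate 4 lay within the WT range. Thrsp was 14.3-fold lower in SKO than in WT (log2 fold change −3.84, SE 0.26, adjusted p = 2.58e-06, edgeR). In DKO it was −1.80 (SE 0.73, adjusted p = 0.133, edgeR), and −3.33 (SE 0.31, adjusted p = 1.78e-05, edgeR) without DKO replicate 4.

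Acly, which encodes the ATP citrate lyase that opens the pathway (ENSMUSG00000020917, chromosome 11 from 100367179 to 100418826, minus strand), was lower in both knockouts. It was at 118, 147, 112 and 146 CPM in WT, 63.8, 45.6, 61.3 and 57.9 in SKO, and 56.1, 61.5, 41.0 and 92.8 in DKO livers. No SKO or DKO liver reached the lowest WT liver, and DKO replicate 4 was the nearest to it. The level was 2.29-fold lower in SKO (log2 fold change −1.20, SE 0.14, adjusted p = 0.000104, edgeR) and 2.06-fold lower in DKO (−1.04, SE 0.23, adjusted p = 0.0259, edgeR). The DKO call had an adjusted p of 9.65e-05 (edgeR) without DKO replicate 4. It did not hold in the fits that left out WT replicate 1, 2 or 4 or DKO replicate 1, 2 or 3, whose adjusted p (edgeR) was between 0.0630 and 0.0792.

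Of the 2 genes of acetyl-CoA carboxylase, the enzyme that makes malonyl-CoA, Acacb was higher in both knockouts and Acaca did not pass the test in either. Acaca encodes the cytosolic form ACC1, which supplies fatty acid synthesis (ENSMUSG00000020532, chromosome 11 from 84020498 to 84292477, plus strand). Acacb encodes ACC2, which sits on the outer mitochondrial membrane, where its malonyl-CoA inhibits fatty acid import (ENSMUSG00000042010, chromosome 5 from 114284596 to 114388822, plus strand). Acaca was at 43.9, 45.0, 54.0 and 47.9 CPM in WT, 34.1, 33.5, 47.4 and 29.6 in SKO, and 38.9, 52.1, 36.5 and 50.3 in DKO livers. Its groups overlapped, and the log2 fold change was −0.40 in SKO (SE 0.15, adjusted p = 0.0637, edgeR) and −0.09 in DKO (SE 0.14, adjusted p = 0.713, edgeR), or −0.16 (SE 0.13, adjusted p = 0.366, edgeR) without DKO replicate 4. Without SKO replicate 3, the highest SKO liver, the SKO value was −0.56 (SE 0.13, adjusted p = 0.00610, edgeR).

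Acacb was at 51.5, 58.5, 45.5 and 59.9 CPM in WT livers. It was at 291, 264, 279 and 196 CPM in SKO and at 244, 222, 182 and 112 CPM in DKO livers. Every knockout liver lay above every WT liver, with DKO replicate 4 the lowest of the 8. Acacb was 4.77-fold higher in SKO (log2 fold change 2.25, SE 0.16, adjusted p = 2.99e-06, edgeR) and 3.55-fold higher in DKO (1.83, SE 0.23, adjusted p = 0.00577, edgeR) than in WT. Without DKO replicate 4 the DKO value was 2.01 (SE 0.14, adjusted p = 1.98e-06, edgeR). Both calls held under every alternative setting run.

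Because both carboxylase genes are counted in the same library, their ratio does not depend on the scaling between livers. The log2 ratio of Acaca to Acacb, per gene length, was −1.06, −1.21, −0.58 and −1.15 in WT livers. It was −3.92, −3.81, −3.38 and −3.56 in SKO livers and −3.47, −2.92, −3.14 and −1.98 in DKO livers. The knockout livers were all below the WT livers, and SKO and DKO overlapped. The mean of SKO was lower than that of WT by 2.67 (n = 4 and 4, two-sided exact permutation p = 0.0286, the smallest the design allows, adjusted p = 0.0571 over 6 ratio tests), and DKO fell by 1.88 against WT with the same p-values. DKO exceeded SKO by 0.79 (exact permutation p = 0.0571, adjusted p = 0.0686). DKO replicate 4 had the ratio nearest to WT, and without it DKO differed from WT by −2.18 (exact permutation p = 0.0571, the smallest 3 livers against 4 allow) and from SKO by 0.49 (exact permutation p = 0.114).

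**Figure D2:**
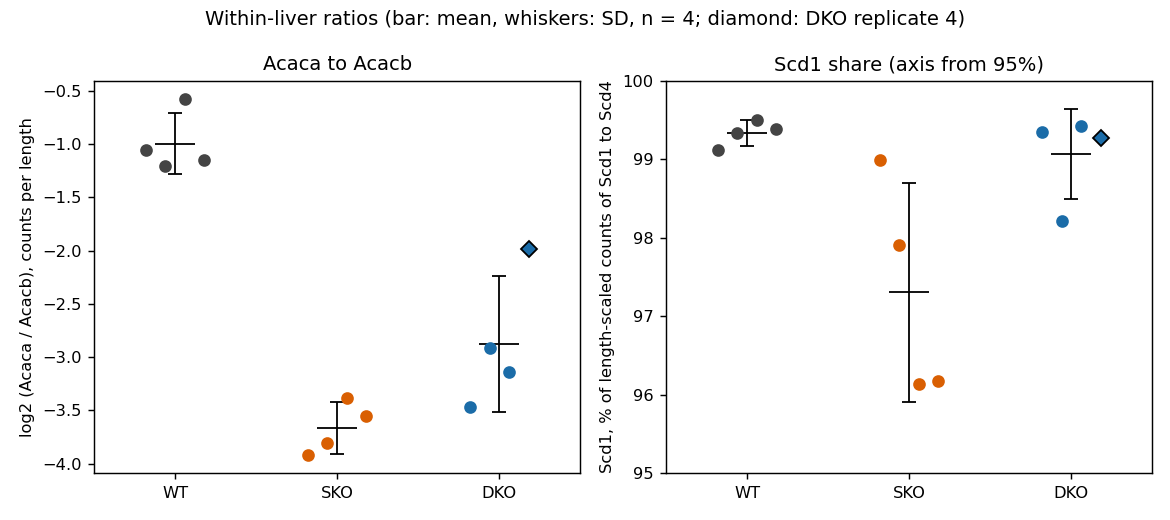
Left, log2 ratio of Acaca to Acacb counts per gene length, and right, Scd1 as a percent of the length-scaled counts of Scd1 to Scd4 (axis from 95%), per liver with mean (bar) and SD (whiskers, n = 4). All knockout livers have an Acaca to Acacb ratio below the WT livers, and the Scd1 share is 96.1 to 99.0% in SKO and 99.1 to 99.5% in WT livers.

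Fasn, the gene of the synthase that makes palmitate (ENSMUSG00000025153, chromosome 11 from 120696672 to 120715373, minus strand), was lower in SKO livers. WT livers had 89.5, 122, 124 and 182 CPM, SKO livers 36.9, 45.7, 82.4 and 34.6 CPM, and DKO livers 56.8, 55.0, 46.5 and 149 CPM. SKO replicate 3 was close to the lowest WT liver, and DKO replicate 4 lay within the WT range. The SKO level was 2.59-fold lower (log2 fold change −1.38, SE 0.28, adjusted p = 0.00325, edgeR). DKO against WT was −0.73 (SE 0.38, adjusted p = 0.226, edgeR), and −1.29 (SE 0.20, adjusted p = 0.000610, edgeR) without DKO replicate 4. The window before its start shown above holds 3 CCAAT boxes and the sterol element core, and the data hold no measurement of binding there.

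Scd1, which encodes the liver's main stearoyl-CoA desaturase (ENSMUSG00000037071, chromosome 19 from 44382894 to 44396318, minus strand), was lower in SKO livers, with a wide spread between livers. It was at 635, 617, 496 and 532 CPM in WT, 449, 118, 64.1 and 132 in SKO, and 390.3, 134, 652 and 397 in DKO livers. SKO replicate 1 and DKO replicate 2 lay far from the rest of their groups, and DKO replicate 3 was above every WT liver. Scd1 was 2.99-fold lower in SKO than in WT (log2 fold change −1.58, SE 0.47, adjusted p = 0.0233, edgeR). Without SKO replicate 1 it was 5.44-fold lower (−2.44, SE 0.25, adjusted p = 6.26e-05, edgeR). Its adjusted p (edgeR) was 0.0723 without SKO replicate 2 and 0.0683 without SKO replicate 4. DKO against WT was −0.52 (SE 0.38, adjusted p = 0.397, edgeR), a value that was −0.53 without DKO replicate 4.

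The Scd family has near-identical members, so reads could be split between them. Scd1 took 99.1 to 99.5% of the length-scaled counts of Scd1, Scd2, Scd3 and Scd4 in WT livers. The share was 99.0, 97.9, 96.1 and 96.2% in SKO and 99.3, 98.2, 99.4 and 99.3% in DKO livers. Scd3 was listed at 0 counts in all 4 WT livers and had 8, 13, 0 and 29 counts in SKO livers. The mean share in SKO fell by 2.04 percentage points against WT (two-sided exact permutation p = 0.0286, n = 4 and 4, adjusted p = 0.0571), and DKO against WT was −0.27 (exact permutation p = 0.571, adjusted p = 0.571). DKO exceeded SKO by 1.76 points (exact permutation p = 0.0571, adjusted p = 0.0686). Without DKO replicate 4 these DKO differences were −0.34 and 1.70 points.

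Me1, the gene of the cytosolic malic enzyme that yields NADPH (ENSMUSG00000032418, chromosome 9 from 86463424 to 86578006, minus strand), was higher in SKO livers. Its levels were 138, 137, 119 and 111 CPM in WT, 272, 267, 198 and 336 in SKO, and 239, 288, 254 and 125 in DKO livers. All SKO livers and the first 3 DKO livers lay above WT, and DKO replicate 4 lay within the WT range. Me1 was 2.12-fold higher in SKO (log2 fold change 1.08, SE 0.16, adjusted p = 0.000421, edgeR) and 1.81-fold higher in DKO (0.85, SE 0.23, adjusted p = 0.0446, edgeR). Without DKO replicate 4 the DKO value was 1.05 (SE 0.12, adjusted p = 5.61e-05, edgeR), and the adjusted p (edgeR) was 0.102 to 0.120 when any other single liver was left out.

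Pnpla3, whose product is an insulin- and feeding-responsive protein of lipid droplets (ENSMUSG00000041653, chromosome 15 from 84052038 to 84071437, plus strand), had few counts in any liver. It had 9, 4, 6 and 7 counts in WT livers, 2, 5, 2 and 1 in SKO livers and 7, 1, 2 and 3 in DKO livers. These levels, 0.0561 to 0.468 CPM, lie around the 0.150 to 0.204 CPM that 3 counts make in these libraries, and no difference was detectable at this depth.

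**Figure D3:**
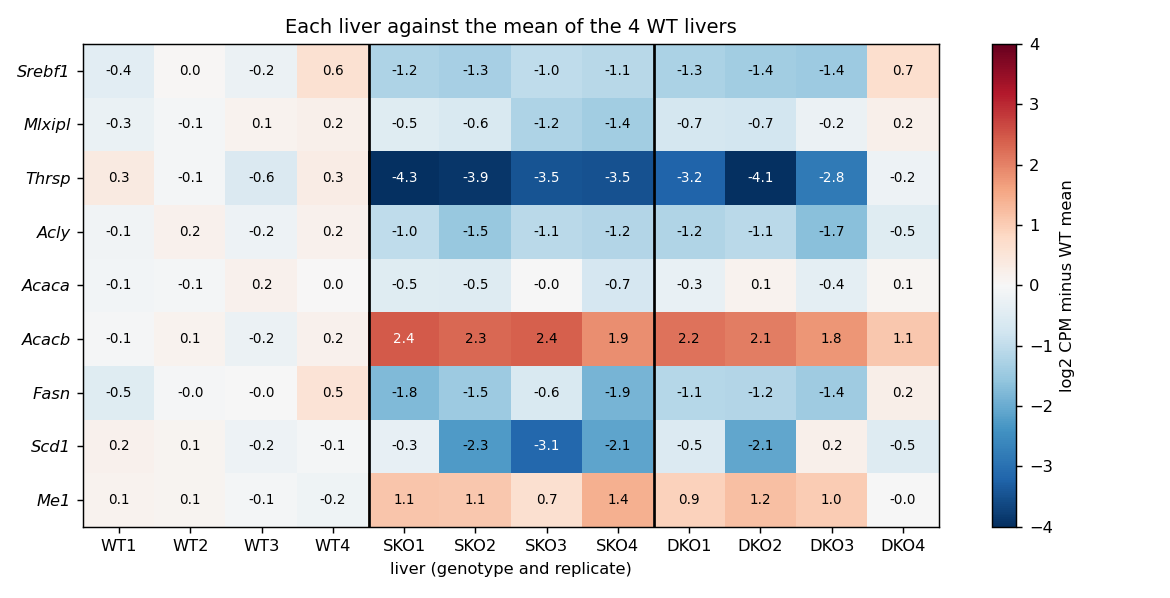
Log2 CPM of the 9 tested genes in each liver minus the mean of the 4 WT livers (color scale from −4 to 4, value printed in each cell, with Thrsp in SKO1 and DKO2 below the scale). SKO1 to SKO4 and DKO1 to DKO3 are blue for Srebf1, Mlxipl, Thrsp, Acly and Fasn and red for Acacb and Me1, and the DKO4 column lies between −0.51 and 0.66 for all genes but Acacb.

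The levels of the genes can be compared once each is divided by its length. In WT livers Scd1 stood first, with 117 ± 13.7 CPM per kb (mean ± SD, n = 4). Mlxipl (36.3 ± 5.28) and Me1 (32.8 ± 3.38) followed and did not differ beyond their spread, and the same held of Srebf1 (13.0 ± 4.28), Thrsp (16.4 ± 4.46) and Fasn (11.8 ± 3.53), with Acly at 24.8 ± 3.49 between these sets. Acacb (5.59 ± 0.695) and Acaca (2.79 ± 0.267) were lower, and Pnpla3 was last at 0.242 ± 0.0575. In SKO livers Me1 led, at 69.7 ± 14.6 CPM per kb, ahead of Scd1 at 39.0 ± 35.7, a difference within the spread of Scd1. Acacb reached 26.7 ± 4.40 and Thrsp fell to 1.14 ± 0.316, so that Acacb was near Mlxipl (19.6 ± 5.94) within their spread and above Acly (10.8 ± 1.53), Srebf1 (5.61 ± 0.498) and Fasn (4.56 ± 2.03). In DKO livers Scd1 was at 80.5 ± 43.2 and Me1 at 58.9 ± 18.3, which overlapped, and without DKO replicate 4 they were at 80.2 ± 52.9 and 67.6 ± 6.50 (n = 3).

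The comparison of DKO with SKO livers sets the labelled double knockout against the single one, with Atf3 RNA lower in DKO but above WT in DKO replicates 1 to 3. None of the 9 genes had an adjusted p under 0.05 by edgeR, where 0.0209% of all 14363 genes passed, and none did by DESeq2. At an unadjusted p under 0.05, 1 gene of the 9 passed, Thrsp, against 6.49% of all genes. Thrsp had a log2 fold change of 2.07 (SE 0.77, adjusted p = 0.695, edgeR) and, without DKO replicate 4, of 0.50 (SE 0.35, adjusted p = 0.869, edgeR). Scd1 was at 1.08 (SE 0.60), Srebf1 at 0.66 (SE 0.46), Fasn at 0.65 (SE 0.41) and Mlxipl at 0.58 (SE 0.28), none of them past the threshold. Acaca was at 0.32 (SE 0.19), Acly at 0.16 (SE 0.24), Me1 at −0.23 (SE 0.25) and Acacb at −0.43 (SE 0.24). The median of the 9 was 0.58, against 0.01 over all genes, and 0.08 without DKO replicate 4. Without that liver Srebf1 was at −0.20 (SE 0.14) and Acly at −0.11 (SE 0.18), below 0, while Scd1 was at 1.06 (SE 0.61). Fasn was then at 0.081 (SE 0.27), Mlxipl at 0.33 (SE 0.23), Acaca at 0.24 (SE 0.19), Me1 at −0.036 (SE 0.18) and Acacb at −0.25 (SE 0.18). SKO livers also moved these values, with Scd1 at 1.94 (SE 0.50, adjusted p = 0.559, edgeR) without SKO replicate 1 and Fasn at 1.01 (SE 0.40, adjusted p = 0.803, edgeR) without SKO replicate 3.

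**Figure D4:**
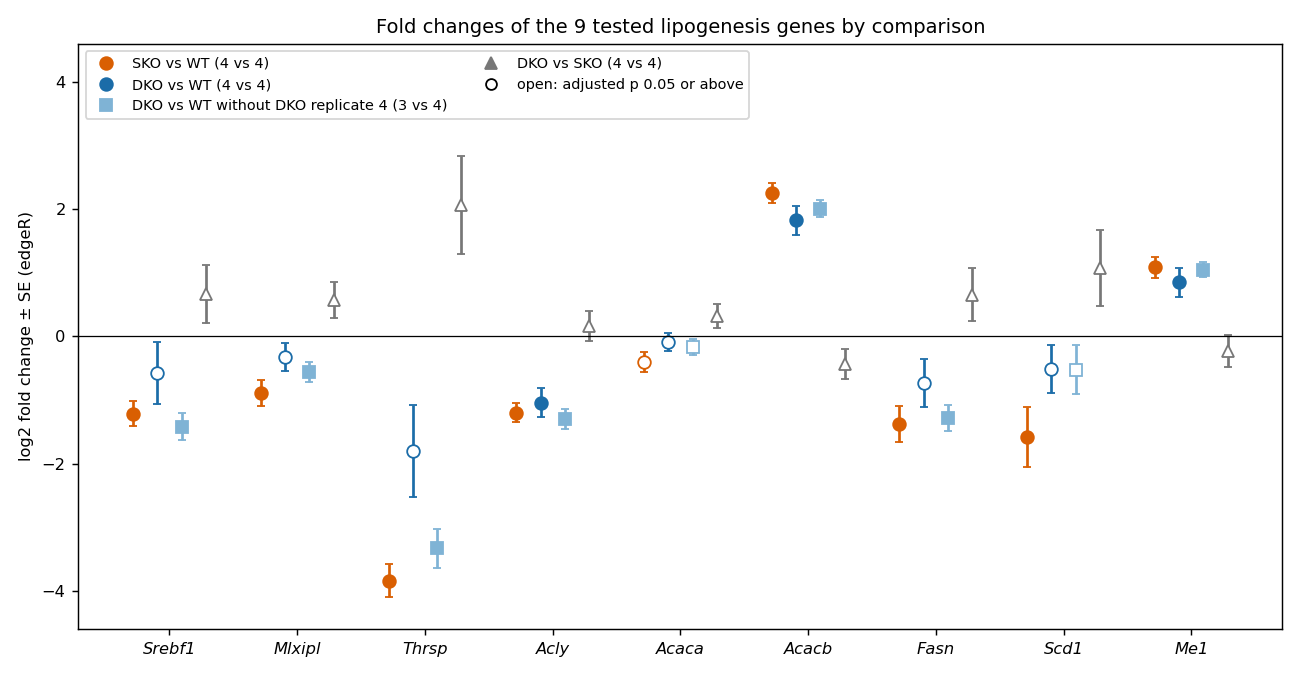
Log2 fold change ± SE of the 9 tested genes by edgeR in SKO against WT, DKO against WT with all livers and without DKO replicate 4, and DKO against SKO, with open symbols for an adjusted p of 0.05 or above. In SKO against WT 8 of the 9 symbols are filled, in DKO against WT 3 are filled with all livers and 7 without replicate 4, and in DKO against SKO none is.

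Genes around the pathway were counted in lists written by hand, each against the 16.7% of all genes higher and the 15.4% lower in SKO than in WT. Of 14 genes that control SREBP-1 and ChREBP, 3 were higher and 5 lower in SKO. Among them Pparg, a nuclear receptor that promotes lipid storage, was higher by a log2 fold change of 1.48, and Mid1ip1, the paralog of Thrsp, was at −2.09. Insig1, which retains SREBPs in the endoplasmic reticulum and is itself an SREBP target, was at −1.59, and its adjusted p (edgeR) was 0.0802 with all 12 livers in 1 fit. Mlx, the partner of ChREBP, was at −0.56.

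Of 16 genes that supply glycolytic carbon, citrate and NADPH, 3 were higher and 8 lower in SKO. Gckr, a regulator of hepatic glucose phosphorylation, was at −2.29, the glucose transporter Slc2a2 at −1.82, ketohexokinase Khk at −1.53 and triokinase Tkfc at −1.33. In the elongation and desaturation list, 4 of 11 tested genes were higher and 2 lower. Elovl6, which extends palmitate, was at −1.67, while Elovl5, which extends polyunsaturated fatty acids, was at 1.05 and the elongation cycle genes Hsd17b12 and Hacd3 at 0.77 and 0.65. Of 9 esterification genes 5 were higher, among them Lpin2 at 1.31, Dgat1 at 0.82 and Gpam at 0.69, and 1 was lower, Agpat2 at −0.85.

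Of 11 genes that act on acetyl-CoA carboxylase or malonyl-CoA, 3 were higher and 2 lower in SKO livers. These included AMP-activated kinase subunits in both directions, Prkab2 at 1.35 and Prkag2 and Prkab1 at −0.78 and −0.63, and Mlycd, the malonyl-CoA decarboxylase gene, at 0.80. Of 23 genes of sterol synthesis and other SREBP-2 targets, 12 were lower and 0 higher, with Stard4 at −1.77, Sc5d at −1.23 and Ebp at −1.14. Of 5 other ChREBP targets, Fgf21 (4.50) and Txnip (1.34) were higher and G6pc (−1.50), Arrdc4 (−1.17) and Gpd1 (−0.77) lower. Among 11 fasting markers 4 were higher, including Pdk4 at 6.54, Igfbp1 at 2.36 and Cyp4a14 at 0.83, and 2 were lower, including Sds at −2.37. Without SKO replicate 3, 3 of these markers were higher and 4 lower, where 32.5% of all genes passed in either direction.

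In DKO against WT livers fewer genes of these lists passed, where 6.06% of all genes were higher and 4.39% lower. Of the SREBP-1 and ChREBP control genes 2 were higher and 3 lower, and of the supply genes 2 were higher and 1 lower. None of the 23 sterol genes passed in edgeR's test, with 1 at an unadjusted p under 0.05, whereas 14 were lower without DKO replicate 4. Without it 17.5% of all genes were lower and 18.4% higher, the control genes counted 3 higher and 6 lower, and the supply genes 4 higher and 7 lower. Pparg was higher by 1.27 (log2, SE 0.17, adjusted p = 0.00636, edgeR) and Mlycd by 0.82 (SE 0.12, adjusted p = 0.00896, edgeR) with all livers, and by 1.40 and 0.88 without DKO replicate 4. In the DKO and SKO comparison no gene of these lists passed in edgeR with all livers and the filter on low counts, and Gckr was nearest.

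**Figure D5:**
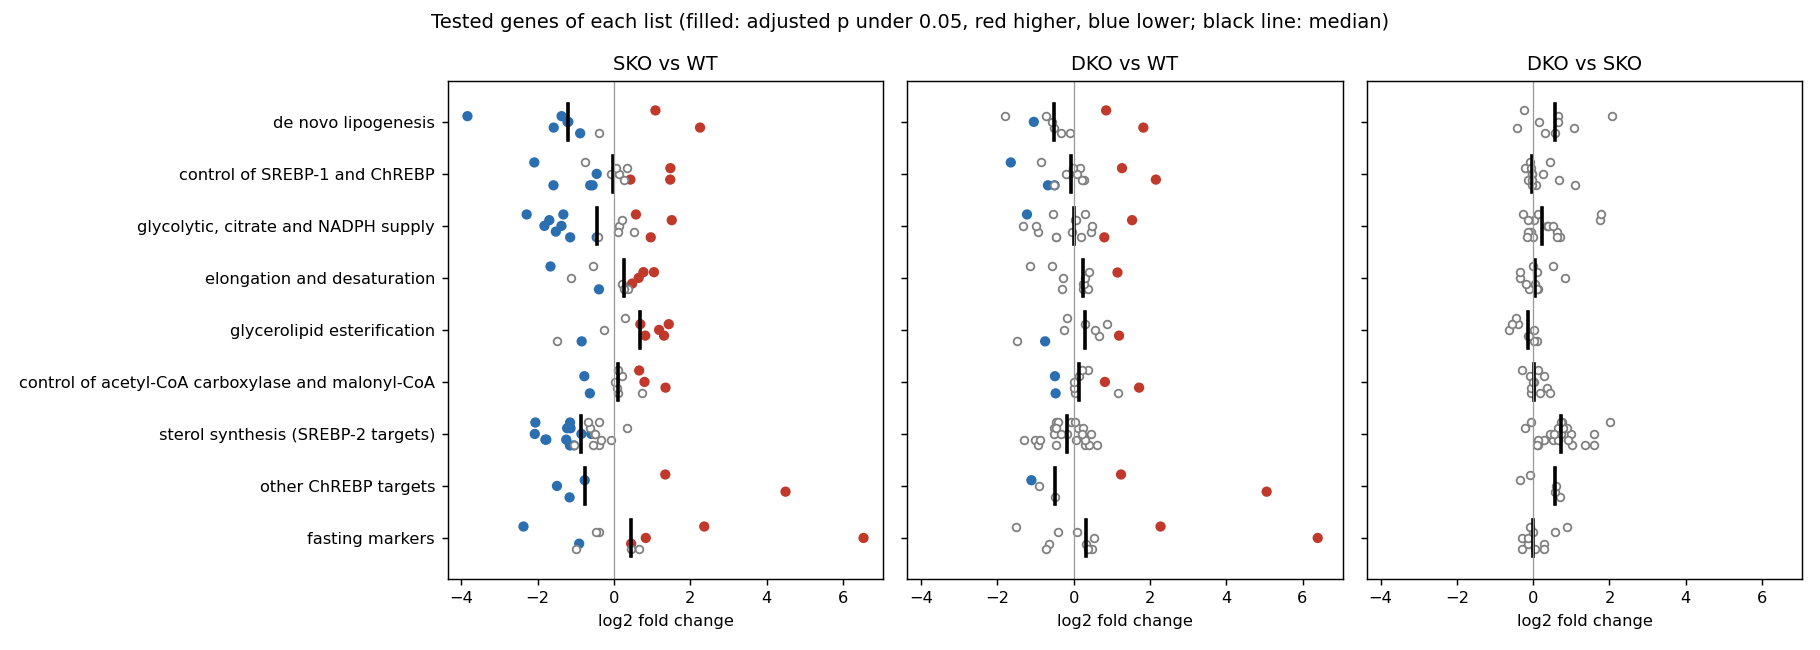
Log2 fold change of every tested gene of the lipogenesis set and of 8 neighboring lists in the 3 comparisons (edgeR), filled red where higher and blue where lower at an adjusted p under 0.05, with the list median as a black line. Sterol synthesis genes show 12 of 23 filled blue in SKO against WT and none filled in DKO against WT or DKO against SKO.

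Gckr had 202, 246, 243 and 234 CPM in WT, 57.4, 34.6, 53.4 and 44.1 in SKO, and 104, 101, 107 and 315 in DKO livers. Every DKO liver lay above every SKO liver, a pattern with DKO higher that 2.08% of all genes shared. The DKO against SKO log2 fold change was 1.77 (SE 0.39, adjusted p = 0.396, edgeR). Without DKO replicate 4 it was 1.14 (SE 0.18, adjusted p = 0.0471, edgeR). The adjusted p was 0.0238 in edgeR without the filter on low counts, and DESeq2 gave 0.00228. With only the livers with Y-linked counts the adjusted p (edgeR) was 0.0407. Under every other setting run it was 0.05 or above, and up to 0.820 (edgeR).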

How the data were processed

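Liver RNA of 12 mice was sequenced by Novogene. For each Ensembl gene the authors deposited the raw read counts, not normalized, and the gene length in bases. The submitters' processing notes name HISAT2 and the mouse builds GRCm38 and mm10. Gene coordinates are printed as the count table gives them and were taken as GRCm39, since the start differed from a GRCm38 annotation for 10 of 10 genes. The counting program, annotation release and strand setting are not given in the sources used here. Deposited tables of FPKM and of the authors' own pairwise comparisons (normalized counts, log2 fold changes and p-values) were not used.

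Each pair of genotypes was fitted on its own 8 livers in R 4.3.3 with edgeR 4.0.16 (TMM, filterByExpr, quasi-likelihood test, two-sided, Benjamini-Hochberg adjustment over all genes tested, threshold 0.05). Ratios were compared by exact permutation tests in scipy 1.17.1. The fits were checked on simulated data. Alternatives were DESeq2 1.42.0, other normalizations, no filter on low counts, all 12 livers in 1 fit, a replicate block, only livers with Y-linked counts, presence of Xist counts as a covariate, and leaving out each liver. Counts per gene list without DKO replicate 4 or SKO replicate 3 were added after seeing the data.

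The members and lists were chosen with earlier results of these data known. Other genes named were, per list, the 4 with the smallest p in SKO against WT and the 2 in each other comparison. Some genes under that rule are not reported here. Promoters came from RefSeq (GRCm38.p6). Livers were grouped by the labelled genotype, and the labels do not say that replicate numbers pair livers, so p-values measure the spread between these livers. Within each genotype no library was a copy of another (smallest chi-square per degree of freedom 18.5), and pairs across genotypes were not checked. Limits from 3 counts cover counting error only. In SKO against WT, where 16.7% of all genes were higher and 15.4% lower, 1 of 8 macrophage markers was higher and 0 of 7 endothelial markers passed. Of tested markers, 0 of 1 lymphocyte gene passed and 1 of 1 adipocyte gene was lower.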

Additional observations from a re-analysis of the deposited data

Results flagged for a closer look

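In groups of 4 livers, a liver was singled out where its gap to the nearest other liver exceeded Dixon's 95% critical share of the group's range. Of 36 values tested, 4 were singled out, where chance gives about 1.8. Srebf1 was at 112 CPM in DKO replicate 4, against 25.9 to 29.4 CPM in the other DKO livers. Fasn was at 149 CPM in the same liver, against 46.5 to 56.8 CPM. Thrsp was at 30.0 CPM there, against 1.96 to 4.83 CPM. The Scd1 share of Scd1 to Scd4 was 98.2% in DKO replicate 2, against 99.3 to 99.4% in the other DKO livers. DKO replicate 4 is the DKO liver with Xist counts, and its sex, batch and condition cannot be told apart.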

How the results depend on the processing

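The 8 lipogenesis genes called in SKO against WT were 7 to 9 when 1 liver was left out, and all genes called were 3617 to 4711 (24.8 to 32.5%). Keeping only the livers with Y-linked counts leaves out SKO replicate 3 and DKO replicate 4, so in DKO against WT it is the same fit as leaving out DKO replicate 4, and the Xist covariate there marks that liver alone. In DKO against WT 3 genes were 7 under both settings and 1 to 7 when 1 liver was left out. All genes called there were 1510 in the report (10.5% of those tested) and 2509 with DESeq2 (8.79% of 28551). They were 5253 (35.9%) without DKO replicate 4, which has no Y-linked counts, and 5168 (35.8%) with the Xist covariate. When 1 liver was left out they were 244 to 5253 (1.63 to 35.9%). In DKO against SKO the 3 genes were 91 with DESeq2, 35 without the filter on low counts, 21 with only the livers with Y-linked counts, 9 with the Xist covariate and 0 to 15 when 1 liver was left out, and 0 lipogenesis genes passed in any of these. The cause of these shifts was not tested.

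In DKO against SKO, with only the livers with Y-linked counts, the log2 fold change turned negative for Srebf1 (−0.15), Acly (−0.071), Insig1 (−0.32) and Sds (−0.48). When 1 liver was left out it ran from −0.20 to 0.87 for Srebf1, −0.11 to 0.32 for Acly, −0.47 to 1.38 for Insig1 and −0.73 to 1.21 for Sds, the lowest without DKO replicate 4. With 3 livers in a group the exact permutation test cannot reach 0.05, and the Acaca to Acacb log2 ratio then differed by −2.76 to −2.53 in SKO against WT, −2.18 to −1.68 in DKO against WT and 0.49 to 0.99 in DKO against SKO. The Scd1 share differed by −2.60 to −1.64, −0.39 to 0.014 and 1.37 to 2.33 percentage points, with DKO against WT above 0 only without DKO replicate 2.

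Replicate numbers were tested as pairs. Deviations of same-numbered livers correlated at −0.44 to 0.16 over 12 pairs, 3 of them over 0.1. The deviations were from means of only 4 livers, so these values cannot decide whether the numbers pair livers. With the replicate block, 691 genes passed in DKO against WT and 0 in DKO against SKO, 9 lipogenesis genes passed in SKO against WT, where 28.8% of all genes did (Acaca at −0.42, adjusted p = 0.0438, edgeR), and 2 in DKO against WT (Me1 at 0.80, adjusted p = 0.0621, edgeR), and Sds in DKO against SKO turned to −0.080.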

Other observations

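Other genes were ranked by root mean square distance, over the 12 livers, from the median centred log2 profile of the 9 lipogenesis genes. The nearest were Slc27a5, a bile acyl-CoA synthetase and fatty acid transport protein of the hepatocyte, Prnp, the prion protein gene, and C1ra, a complement protease gene. Dmgdh, a choline breakdown enzyme gene, and Serpinf1, which encodes a secreted serpin, came next. In this order the distances were 0.114, 0.124, 0.134, 0.135 and 0.138, the lowest of 9781 genes with a mean of at least 5 CPM. Of the lipogenesis genes themselves, Acly lay nearest to that profile (0.248) and Mlxipl next (0.296). Scd1 (0.867), Me1 (1.01), Thrsp (1.38) and Acacb (1.45) lay farthest, so the profile does not stand for every one of these genes.

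Adrb3, a receptor gene known from adipocytes, was the 1 of 7 adipocyte markers that passed the filter on low counts. It had 170, 120, 166 and 246 counts in WT, 16, 23, 6 and 9 in SKO and 13, 8, 21 and 105 in DKO livers, with SKO and DKO livers all below WT. It was lower in SKO than in WT by a log2 fold change of −3.75 (SE 0.36, adjusted p = 2.44e-05, edgeR), and in DKO it was −2.36 (SE 0.67, adjusted p = 0.0536, edgeR) with all livers and −3.77 (SE 0.32, adjusted p = 1.05e-05, edgeR) without DKO replicate 4. Lep had 0 counts in each of the 12 livers, and Adipoq at most 5. Plin1 had 0 counts in each WT liver, 3, 5, 5 and 10 in SKO and 3, 2, 0 and 1 in DKO livers. Cidea had 0, 0, 4 and 3 in WT, 5, 13, 10 and 11 in SKO and 15, 0, 7 and 0 in DKO livers. Both had more counts in every SKO liver than in any WT liver, but neither passed the filter on low counts there. This difference of a few counts was therefore not tested.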
